A study of Mus musculus with 4 samples.

Results

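The genes described are 57 symbols of the cell division machinery: licensing factors, helicases and enzymes of DNA replication, kinases, spindle and kinetochore proteins of mitosis, and the cyclins, kinases and pocket proteins that govern passage from G1 into S phase. Cdc2a is an older symbol of Cdk1, so the list held 56 genes. Members are defined by symbol, and every probe filed under one of these symbols was taken. Of the 56 genes, 55 had a probe under their symbol, and 40 had a probe detected above background (detection p under 0.05) on at least 2 of the 4 arrays. These 40 were 15 DNA replication genes, 15 mitosis genes and 10 genes of G1 and S control, among 11517 genes that passed the same filter.

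Expression was measured in whole P6 lenses (postnatal day 6) on Illumina MouseWG-6 v2.0 BeadChips, each array taking total RNA of 1 lens, with n = 2 in each group. Mice of the Celf1 cKO group carried a germline null allele of Celf1 (a lacZ knock-in) and a conditional allele whose exon 5 is removed by Cre recombinase, together with Pax6GFPCre, which drives Cre in the lens lineage. Mice of the Control group had that same lacZ knock-in on 1 chromosome and the wild-type gene on the other, so both groups lacked 1 functional copy of Celf1 from the germline, and whether Control mice carried Cre is not stated in the labels. The background of all 4 mice mixed C57BL/6 and FVB, and neither the sex of the mice nor whether lenses came from littermates is stated. The comparison asks whether transcripts of dividing lens cells differed when CELF1, an RNA-binding protein that acts on messenger RNA decay, splicing and translation, was removed from the lens.

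In the lens, cells divide in the anterior epithelium, mainly in the germinative zone near the equator, and then leave the cell cycle and elongate into fiber cells, which make up the bulk of the tissue. Cyclin D with CDK4 or CDK6, and then cyclin E with CDK2, phosphorylate the retinoblastoma protein and its relatives, which releases E2F factors to switch on the genes of DNA synthesis. Genes of mitosis are switched on later, and inhibitors such as p21 (Cdkn1a), p27 (Cdkn1b) and p57 (Cdkn1c) hold cyclin-dependent kinases in check as cells exit the cycle.

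The separation of replication from mitosis genes is visible in their promoters. These are shown because the same words define the subsets whose array values are compared further on. RefSeq promoter windows of GRCm38.p6, each running from 250 bases before to 50 bases after a transcription start, were found for 43 of the 56 genes (47 windows). Windows were searched on both strands for words of E2F sites (TTTCCCGC, TTTCGCGC, TTTGCCGC and TTTGGCGC), for the word of the cell cycle genes homology region (CHR, TTTGAA) and for the CCAAT word bound by NF-Y. Each stretch below covers the 160 bases just upstream of a start, written 5′ to 3′ in the direction of transcription. Capitals mark the E2F words in Mcm5 (chr8:75109349-75109508, plus strand) and Mcm6 (chr1:128359706-128359865, minus strand), E2F and CHR words in Cdk1 (chr10:69352913-69353072, minus strand), and CHR words in Mki67 (chr7:135716380-135716539, minus strand) and Cdc20 (chr4:118437344-118437503, minus strand). In Mcm5, and at the first marked place of Mcm6, an E2F word on 1 strand overlaps another on the opposite strand.
Mcm5: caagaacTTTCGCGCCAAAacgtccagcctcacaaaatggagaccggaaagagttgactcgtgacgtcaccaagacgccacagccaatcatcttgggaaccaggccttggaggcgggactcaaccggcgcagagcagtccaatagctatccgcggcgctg
Mcm6: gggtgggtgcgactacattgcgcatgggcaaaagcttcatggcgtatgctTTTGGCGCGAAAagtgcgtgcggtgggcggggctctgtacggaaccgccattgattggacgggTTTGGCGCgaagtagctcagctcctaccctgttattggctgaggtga
Cdk1: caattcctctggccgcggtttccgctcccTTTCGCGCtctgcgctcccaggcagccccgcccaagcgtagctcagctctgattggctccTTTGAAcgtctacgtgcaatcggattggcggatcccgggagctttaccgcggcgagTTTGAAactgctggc
Mki67: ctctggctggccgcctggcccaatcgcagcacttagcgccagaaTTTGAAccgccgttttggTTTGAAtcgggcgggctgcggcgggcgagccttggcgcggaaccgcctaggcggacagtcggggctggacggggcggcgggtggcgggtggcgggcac
Cdc20: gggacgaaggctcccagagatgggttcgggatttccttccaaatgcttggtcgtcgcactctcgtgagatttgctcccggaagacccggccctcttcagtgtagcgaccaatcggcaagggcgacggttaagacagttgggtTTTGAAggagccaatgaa

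An E2F word was present in 8 of 18 windows of DNA replication genes (44.4%), in 1 of 18 windows of mitosis genes (5.56%) and in 3 of 11 windows of G1 and S control genes (27.3%), against 2.26% of all 32851 windows. The CHR word was present in 11 of 18 mitosis windows (61.1%), in 2 of 18 replication windows (11.1%) and in 2 of 11 G1 and S control windows (18.2%), against 17.9% of all windows. The CCAAT word was found in 72.2% of replication, 83.3% of mitosis and 36.4% of G1 and S control windows, against 37.4% overall. The only E2F word of a mitosis gene was that of Cdk1, which encodes the kinase that drives entry into mitosis. A match describes the letters of a window and is neither evidence of binding nor a cause of any value on the arrays.

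Array values are given as log2 signal after background correction, quantile normalization and addition of an offset of 16, so that fold changes of dim genes are understated. Genes were called elevated or reduced when the adjusted p was under 0.05 (limma, Benjamini-Hochberg over all 11517 genes), the log2 fold change was beyond 0.58 in either direction and the mean log2 signal exceeded 4.6. By these criteria 11.7% of all genes were called, 6.02% elevated and 5.64% reduced in cKO lenses. The targeted gene Celf1 had log2 signals of 7.45 and 6.95 in cKO and 8.71 and 8.55 in Control lenses, a difference of -1.43 ± 0.19 (SE) on the log2 scale (limma adjusted p = 0.0099). Without cKO B its log2 fold change was -1.18, and the call was lost. It was also lost with the deposited normalized table at a floor of 1 (log2 fold change -1.52, limma adjusted p = 0.076). With no detection filter Celf1 had -1.16 and was not called either (limma adjusted p = 0.072). The cKO arrays were brighter, with 16261 and 16925 probes detected against 14542 and 14180 on the Control arrays, so brightness and genotype varied together and cannot be told apart. Of the tested sex chromosome genes, Xist was at least 6.09-fold higher in cKO and the Y-linked Ddx3y had 6.81 and 4.82 in cKO and 8.99 and 8.82 in Control (log2 fold change -3.09, a call lost without either Control sample). The Y-linked Uty was above background on the cKO arrays alone and was not called. The sex of the lenses is not settled by these values, and a difference in sex cannot be told apart from genotype.

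None of the 40 proliferation genes was called. The count was 0 elevated and 0 reduced (limma), and 3 of 40 (7.5%) had an unadjusted p under 0.05, against 31.9% of all genes. These 3 were the G1 cyclins Ccne1, Ccnd2 and Ccnd3. Mcm3, Ccne1 and Ccne2 were above background on no Control array and passed the filter through the cKO arrays alone, and over the other 37 genes 2 (5.41%) had an unadjusted p under 0.05, Ccnd2 and Ccnd3. Of 20 alternative settings, 14 also called 0 proliferation genes, and the 6 others are given further on. Some of the 14 called few genes at all, so a count of 0 members carries little weight there. The share of all genes was 0.061% with the deposited normalized table at a floor of 1. It was 0.72% with no detection filter and in a test against the fold threshold, and at most 13.2% (brightest probe). No minimum signal and RefSeq assignment of probes each gave 1342 calls, the number as reported. With 18 log2 fold changes above 0 and 22 below, the median over the 40 genes was -0.01 (-0.03 over the 37), beside 0.01 over all genes. The median of the absolute log2 fold change was 0.13, against 0.25 over all genes.

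For 20 of the 40 genes (50%), cKO and Control values did not overlap, as for 18 of the 37 (48.6%), and such separation was found for 62.3% of all genes. Both cKO lenses lay above both Control lenses for 10 of these genes and below them for the other 10. A p that misses the threshold does not show that values did not differ, so the intervals were examined. For 24 of 40 genes (60%) the 95% interval of the log2 fold change lay wholly within 0.58 of 0 in either direction (22 of the 37, 59.5%), against 40.4% of all genes. The intervals of the remaining 16 genes reached past 0.58 in at least 1 direction. A change of that size is not excluded for them, nor for the 24. The offset understates changes of dim genes, and the count depended on processing. With the deposited normalized table at a floor of 1, which adds no offset, it was 7 of 40 (9.40% of all genes). At the same median per array it was 2 of 40 (13.4%), and with no scaling 0 of 40 (11.3%). The 24 also include Mcm6, Mcm7, Tyms and Cdk2, whose averaged probes differed by more than 0.58. Without cKO A the count was 7 of 37 genes (9.88% of all genes) and without cKO B 8 of 36 (11.9%).

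**Figure D1:**
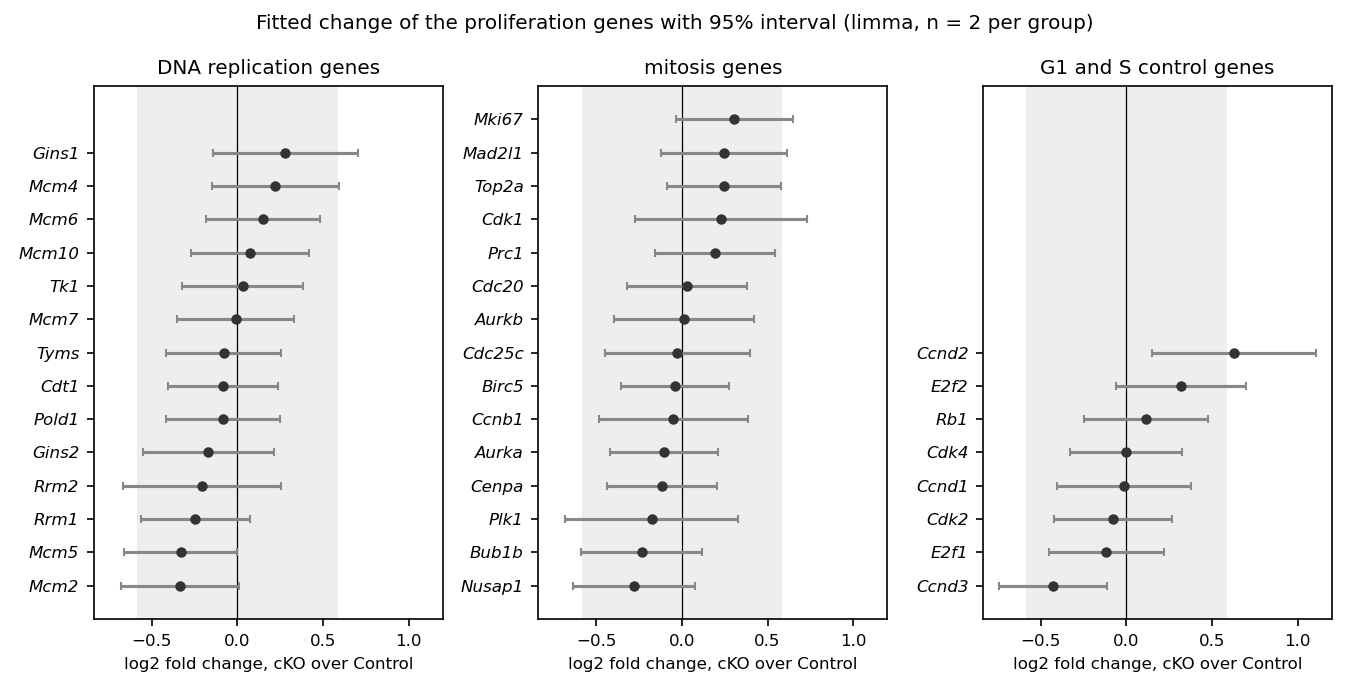
Fitted log2 fold change (cKO over Control, x axis) of each of the 37 proliferation genes above background in both groups, as points with 95% intervals from limma (n = 2 per group), in panels for DNA replication, mitosis, and G1 and S control. The grey band marks log2 fold changes within 0.58 of 0, and only the point of Ccnd2 (0.63) lies outside it.

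The DNA replication genes were examined first. Of 15 tested, 6 had a log2 fold change above 0 and 9 below, with a median of -0.08 and a range of -0.33 to 0.28, and 0 had an unadjusted p under 0.05. The lowest adjusted p among them was 0.157 (limma). The groups did not overlap for 6 of the 14 above background in both groups (42.9%), against 62.3% of all genes. The signals of the 15 genes summed to 1117 and 1059 in the cKO lenses and to 1165 and 1083 in the Control lenses, and these ranges overlapped.

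The MCM2 to MCM7 proteins form the ring-shaped helicase that is loaded at origins in G1 and unwinds DNA in S phase. Mcm2 had log2 signals of 6.85 and 6.64 in cKO lenses A and B and of 7.05 and 7.11 in Control lenses A and B. Mcm5, whose promoter is shown above, had 6.92 and 6.76 in cKO and 7.20 and 7.15 in Control. Both subunits were lower in both cKO lenses than in either Control lens, each with a log2 fold change of -0.33, and neither was called (adjusted p = 0.166 for Mcm2 and 0.157 for Mcm5). Their intervals ran from -0.68 to 0.01 for Mcm2 and from -0.66 to 0.0004 for Mcm5.

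Other subunits of the same ring had log2 fold changes of opposite sign. Mcm4 had 8.21 and 8.19 in cKO and 8.13 and 7.82 in Control, with a log2 fold change of 0.22 (interval -0.15 to 0.59). Mcm6 had 5.65 and 5.49 in cKO and 5.44 and 5.40 in Control, with a log2 fold change of 0.15 (interval -0.18 to 0.48). For both, the cKO lenses were the higher ones and the 95% interval included 0. The sign of Mcm6 is not settled, since its probes ran from -0.11 to 0.50 and the brightest gave -0.11. Mcm7 had 5.05 and 4.92 in cKO and 4.91 and 5.07 in Control, and the groups overlapped. Mcm3 had 4.69 and 4.57 in cKO and 4.69 and 4.52 in Control, and its probe was above background on neither Control array, so that its fitted difference is no measure of a fold.

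Among the genes that load and start the helicase, Cdt1, which brings MCM proteins to origins, had a log2 fold change of -0.08 (interval -0.41 to 0.24). Mcm10, which acts when origins fire, had 0.08 (interval -0.27 to 0.42). Gins1 and Gins2 encode subunits of the GINS complex, which joins the helicase in its active form. Gins1 had 5.56 and 5.28 in cKO and 5.31 and 4.97 in Control, with a log2 fold change of 0.28 (interval -0.14 to 0.70), and Control A lay between the cKO lenses. Gins2 had 5.70 and 5.85 in cKO and 6.10 and 5.79 in Control, with a log2 fold change of -0.17. A further probe that RefSeq assigns to Gins2, filed under another symbol, had 0.10. Cdc45, which completes the active helicase, had no probe under its current symbol, and the probe filed under its older symbol Cdc45l had 5.54 and 5.60 in cKO and 5.47 and 5.12 in Control, with a log2 fold change of 0.27 (adjusted p = 0.296).

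Pold1, the catalytic subunit of DNA polymerase delta, was the 1 polymerase gene tested, with a log2 fold change of -0.09 (interval -0.42 to 0.25). Nucleotide supply was represented by 4 genes. Rrm1, the large subunit of ribonucleotide reductase, had 5.85 and 5.79 in cKO and 6.04 and 6.09 in Control, with a log2 fold change of -0.25 (adjusted p = 0.255), and both cKO values lay below both Control values. Rrm2, the S phase subunit of the same enzyme, had 4.77 and 5.13 in cKO and 5.35 and 4.96 in Control, and the groups overlapped. Thymidylate synthase (Tyms) had a log2 fold change of -0.08 and thymidine kinase (Tk1) of 0.03, both with intervals within 0.58 of 0. Each of these values averages in a probe that was above background on the cKO arrays alone. Over probes detected on all 4 arrays, Tyms had -0.23 and Tk1 -0.19, and neither was called.

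The tested replication genes with an E2F word in a promoter window were Mcm3, Mcm5, Mcm6, Mcm7, Cdt1 and Pold1. The median log2 fold change of the 5 above background in both groups, without Mcm3, was -0.08 (range -0.33 to 0.15), and that of the 6 tested genes whose windows held none was -0.14 (range -0.33 to 0.08). Mcm5 and Mcm6, with the paired E2F words printed above, had log2 fold changes of opposite sign, though the probes of Mcm6 themselves differed in sign.

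**Figure D2:**
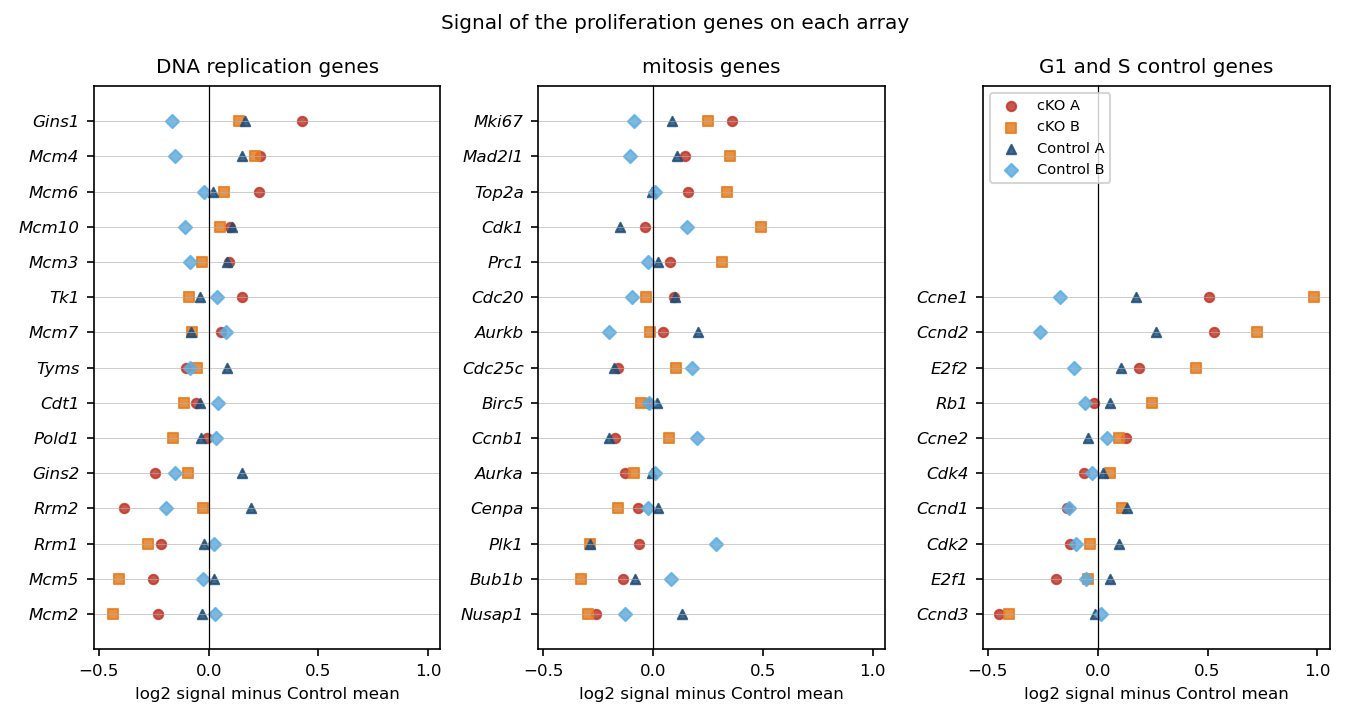
Log2 signal of each proliferation gene on each of the 4 arrays, minus the mean of the Control arrays (x axis), for all 40 genes tested. Circles and squares are cKO A and B, triangles and diamonds Control A and B, and Ccnd3, Mcm2 and Mcm5 are among the genes with both cKO lenses below both Control lenses.

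The mitosis genes gave a similar picture. Of 15 tested, 7 had a log2 fold change above 0 and 8 below, with a median of -0.03 and a range of -0.28 to 0.30, and 0 had an unadjusted p under 0.05. The lowest adjusted p was 0.195 (limma), that of Mki67. Their signals summed to 1049 and 1088 in the cKO lenses and to 1055 and 1063 in the Control lenses. For 9 of the 15 genes (60%, against 62.3% of all genes) the groups did not overlap, with both cKO lenses the higher for 4 and the lower for 5.

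Mki67 encodes the Ki-67 protein, which coats mitotic chromosomes and is the usual marker of cycling cells. It had log2 signals of 5.76 and 5.65 in cKO and 5.48 and 5.31 in Control lenses, with a log2 fold change of 0.30 (interval -0.04 to 0.65). Top2a, the topoisomerase that untangles sister chromatids, had 6.16 and 6.33 in cKO and 5.99 and 6.00 in Control, with a log2 fold change of 0.25 (interval -0.09 to 0.58). Both markers were higher in both cKO lenses than in either Control lens, and neither was called (adjusted p = 0.195 and 0.275). Cenpa, the histone variant of centromeres, had 7.88 and 7.79 in cKO and 7.97 and 7.93 in Control, with a log2 fold change of -0.12. Its groups did not overlap either, in the other direction.

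Entry into mitosis depends on cyclin B with CDK1, activated by CDC25 phosphatases. Cdk1 had 5.89 and 6.42 in cKO and 5.78 and 6.08 in Control, with a log2 fold change of 0.23 (interval -0.27 to 0.73). Its lenses spread within each group, and Control B lay above cKO A. Ccnb1 had 5.54 and 5.78 in cKO and 5.51 and 5.91 in Control, with a log2 fold change of -0.05. Cdc25c had 4.51 and 4.78 in cKO and 4.50 and 4.85 in Control, and was above background only in cKO B and Control B. In these 3 genes the groups overlapped, and lenses of the same group differed by more than the group means did.

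Spindle and chromosome passenger genes were next. Aurka, the kinase of spindle poles, had a log2 fold change of -0.11 (interval -0.42 to 0.21), and Aurkb, the kinase of the chromosomal passenger complex, had 0.01 (interval -0.40 to 0.42). Birc5 (survivin), a partner of Aurkb, had -0.04 (interval -0.36 to 0.28). Plk1, a kinase needed throughout mitosis, had 5.74 and 5.51 in cKO and 5.51 and 6.09 in Control, and the groups overlapped, with cKO B and Control A both at the low end. Prc1, which bundles microtubules at the spindle midzone, had 7.04 and 7.28 in cKO and 6.99 and 6.94 in Control, with a log2 fold change of 0.20. Nusap1, a spindle microtubule protein, had 5.47 and 5.43 in cKO and 5.86 and 5.60 in Control, with a log2 fold change of -0.28 (adjusted p = 0.249), so that these spindle genes had opposite signs.

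The spindle checkpoint genes Bub1b and Mad2l1 encode subunits of the complex that delays anaphase by holding Cdc20, the activator of the anaphase-promoting complex. Bub1b had 5.21 and 5.01 in cKO and 5.26 and 5.43 in Control, with a log2 fold change of -0.23. Mad2l1 had 5.51 and 5.72 in cKO and 5.47 and 5.26 in Control, with a log2 fold change of 0.25. Neither pair of groups overlapped, the signs were opposite, and neither gene was called (adjusted p = 0.325 and 0.317). Cdc20 itself had a log2 fold change of 0.03 (interval -0.32 to 0.38), with overlapping groups.

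Of the tested mitosis genes with a promoter window, 9 had a CHR word in a promoter window, and their median log2 fold change was 0.03 (range -0.23 to 0.30). The 4 without it had a median of -0.05 (range -0.28 to 0.25). Mki67 and Cdk1, with pairs of CHR words in the stretches printed above, had log2 fold changes of 0.30 and 0.23, while Cdc20 had 0.03.

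Among the G1 and S control genes 10 were tested, with a median log2 fold change of 0.05. Of the 8 above background in both groups, 3 had a log2 fold change above 0 and 5 below, with a median of -0.01 and a range of -0.43 to 0.63. Ccnd2 (cyclin D2) had log2 signals of 7.93 and 8.13 in cKO and 7.66 and 7.14 in Control lenses. Ccnd3 (cyclin D3) had 8.36 and 8.40 in cKO and 8.79 and 8.82 in Control. Ccnd1 (cyclin D1) had 9.49 and 9.74 in cKO and 9.76 and 9.50 in Control, and its groups overlapped, whereas Ccnd2 was higher and Ccnd3 lower in both cKO lenses.

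The log2 fold change of Ccnd2 was 0.63 ± 0.20 (SE, interval 0.15 to 1.11) and that of Ccnd3 was -0.43 ± 0.13 (SE, interval -0.74 to -0.11). Neither was called, with adjusted p values of 0.084 and 0.078 (limma), and the size of the Ccnd3 difference was also below the fold threshold. All 3 retained probes of Ccnd2 gave a positive difference (0.43 to 0.78), and both of Ccnd3 a negative one (-0.50 to -0.35). Ccnd2 was called without Control A (log2 fold change 0.89, adjusted p = 0.036) and had 0.37 without Control B. With signals left unscaled between arrays, Ccnd3 had a log2 fold change of 0.38 while the median of all genes stood at 0.57. Ccnd1 had a log2 fold change of -0.01 (interval -0.41 to 0.38).

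Cyclin E drives the start of S phase with CDK2. Ccne1 had 4.90 and 5.38 in cKO and 4.57 and 4.22 in Control lenses, and was above background on no Control array. Signal in cKO was at least 1.32-fold higher, and the gene was not called (limma adjusted p = 0.059). The bound sets the cKO mean against the lowest signal of detected probes on the Control arrays, or the gene's own value where that was higher. Ccne2, also above background on no Control array, had 4.74 and 4.72 in cKO and 4.57 and 4.66 in Control, and no bound above 1 could be set for it.

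Cdk4, the partner of D-type cyclins, had 7.13 and 7.24 in cKO and 7.21 and 7.16 in Control, with a log2 fold change of -0.0039 (interval -0.33 to 0.32). Cdk2 had -0.08 (interval -0.42 to 0.26). E2f1 and E2f2 encode E2F factors that activate transcription. E2f1 had 7.68 and 7.83 in cKO and 7.93 and 7.82 in Control, and the groups overlapped. E2f2 had 5.37 and 5.63 in cKO and 5.29 and 5.07 in Control, with a log2 fold change of 0.32 (adjusted p = 0.222) and no overlap. Its probe detected on all 4 arrays gave 0.05. Rb1, the retinoblastoma protein itself, had a log2 fold change of 0.12 (interval -0.25 to 0.48).

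The other members were not tested. Of the 16 genes that did not pass, 15 had a probe (24 probes in all), and 14 of these were detected on no array. The genes with a probe detected on no array were Cdc6, Gmnn, Pcna, Pola1, Pole, Prim1, Ccna2, Ccnb2, Cdc25b, Tpx2, Bub1, Cenpe, Cdk6 and Rbl2. They include the sliding clamp Pcna, whose 1 probe had a lowest detection p of 0.384, and cyclin A2 (Ccna2), with a lowest detection p of 0.521. Such a probe gives no level for its gene and does not show that the gene was silent. Just outside the filter stood Rbl1, detected on 1 array with a lowest detection p of 0.0139. Just inside it stood Mcm3, Cdc25c, Ccne1 and Ccne2, detected on 2 arrays each, while 35 of the 40 tested genes had a probe detected on all 4.

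Probes of the same gene did not always give the same sign. Of 118 probes under member symbols, 66 were kept, and 53 of those were detected on all 4 arrays. Of 18 members with several probes above background in both groups, 11 had such probes of opposite sign, and in 4 of these the probes differed by more than 0.58. The probes of Mcm7 had log2 fold changes of -0.47 and 0.45, those of Tyms -0.58 and 0.12, those of Cdk2 ran from -0.52 to 0.14 and those of Mcm6 from -0.11 to 0.50. The Mcm7 probe at -0.47 was detected on 2 arrays, cKO A and Control B, and the other on all but Control B. The kept probes were read on 19 to 68 beads, and the standard error over beads had a median of 4.16% to 4.58% of the signal on 3 arrays and of 7.26% on Control B. Most members were dim, with a mean log2 signal under 6 for 24 of the 40 in a range of 4.62 to 9.62, while the lowest signal of detected probes stood at 4.56 to 4.76.

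The number of members called depended on the scaling between arrays. When arrays were set to the same median, the all-gene median of the log2 fold change moved to 0.53, and 19 of 40 members (47.5%) and 47.0% of all genes were called, with all 19 members elevated. With no scaling the median moved to 0.57, and 20 members (50%) and 50.3% of all genes were called. When the median was equalized over only the probes detected on all arrays, the median moved to -0.19, and Rrm2 and Mcm3, of which Mcm3 was above background on neither Control array, were called reduced (5%), against 23.4% of all genes. Relative to the median of all genes, the members lay between -0.42 and 0.71 under each of these scalings, with Ccnd2 the only one beyond 0.58. As reported here, the 37 genes above background in both groups lay between -0.44 and 0.62 relative to that median, again with Ccnd2 the only one beyond 0.58.

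**Figure D3:**
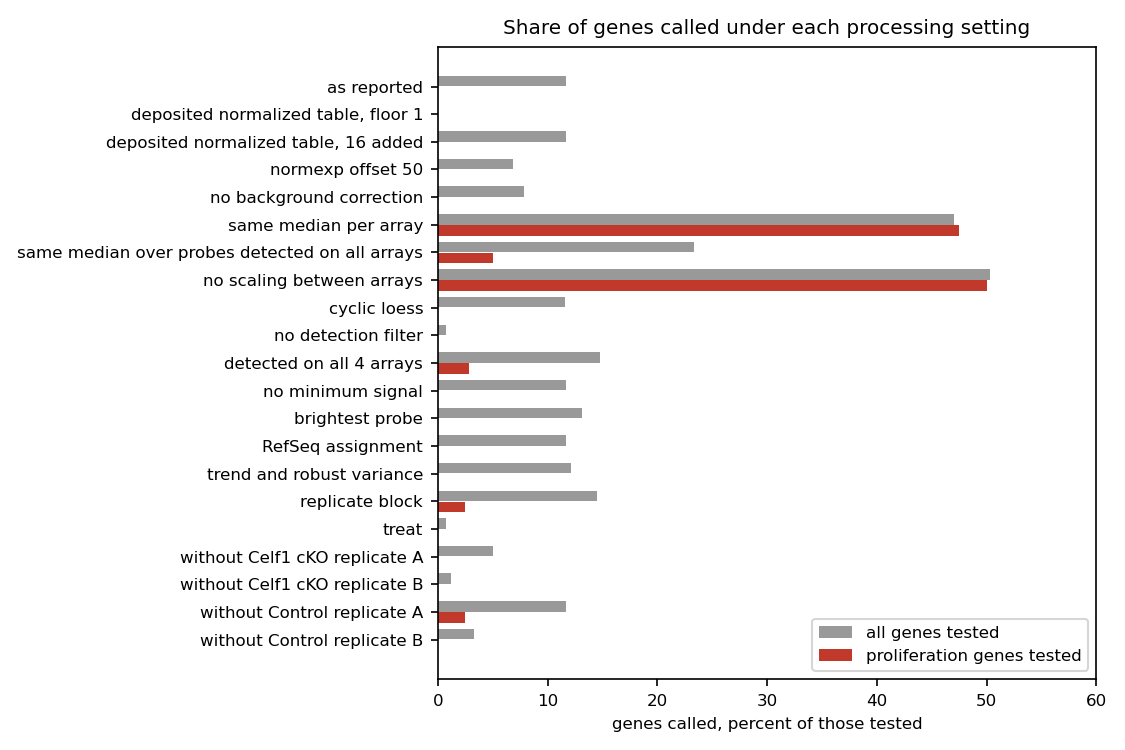
Percent of genes called (x axis, from 0) under each processing setting (y axis), for all genes tested (grey) and for the proliferation genes tested (red). Red bars come close to the grey ones at the same median per array and with no scaling, are short or absent elsewhere, and the top bars give the values as reported (11.7% and 0).

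Further genes of the same processes were then counted from lists of other replication, mitosis and G1 control genes. Of 45 other replication genes, 36 were tested, with 1 called elevated and 1 reduced (5.56%, against 11.7% of all genes). Timeless, which protects replication forks, had log2 signals of 7.58 and 7.04 in cKO and 5.81 and 5.72 in Control, and differed by 1.54 ± 0.20 (SE) on the log2 scale (adjusted p = 0.0087). Dbf4, the activating subunit of the origin-firing kinase CDC7, had 5.81 and 5.72 in cKO and 7.15 and 7.08 in Control, and differed by -1.35 ± 0.14 (SE, adjusted p = 0.0047). Both calls held without each sample in turn. The median log2 fold change of the 36 was 0.09.

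Of 63 other mitosis genes, 39 were tested, with 6 elevated and 3 reduced (23.1%, against 11.7% of all genes) and a median log2 fold change of 0.07. The largest positive ones were Incenp (0.85, adjusted p = 0.035), the scaffold of the chromosomal passenger complex, Cdkn3 (0.68, adjusted p = 0.035), a phosphatase of cyclin-dependent kinases, and Zwint (0.68, adjusted p = 0.029), a kinetochore protein. The largest negative ones were Ncaph (-0.88, adjusted p = 0.018), a condensin subunit, Kif2c (-0.74, adjusted p = 0.023), a microtubule-depolymerizing kinesin, and Cenpq (-0.73, adjusted p = 0.021), a kinetochore protein. Both cKO lenses lay above both Control lenses for the elevated genes named, and below them for the reduced ones. All 6 calls were lost when cKO B or Control B was left out, with adjusted p values reaching 0.144 to 0.253. All but that of Incenp were lost without cKO A, and those of Incenp and Zwint also without Control A.

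Of 32 other G1 control genes, 22 were tested, with 3 elevated and 2 reduced (22.7%, against 11.7% of all genes) and a median log2 fold change of 0.10. Cdkn1a (p21), an inhibitor of cyclin-dependent kinases, had 7.91 and 9.32 in cKO and 4.48 and 4.47 in Control, where it was above background on neither array. Its signal in cKO lenses was at least 14.7-fold higher (limma adjusted p = 0.0043). Cdkn1a is among the 3 elevated genes but passed the detection filter through the cKO arrays alone. Its p and its call are therefore no further support for a difference. Ccng1 (cyclin G1), like Cdkn1a a known target gene of p53, had 10.19 and 10.74 in cKO and 8.86 and 8.66 in Control, and differed by 1.71 ± 0.21 (SE) on the log2 scale (adjusted p = 0.0074). The call of Ccng1 held without each sample in turn, and that of Cdkn1a without either Control sample, while without a cKO sample Cdkn1a was detected on too few arrays to be tested. With the deposited normalized table at a floor of 1 and with no detection filter, Cdkn1a was not called (limma adjusted p = 0.057 and 0.061). For Cdkn1a and Ccng1 the cKO lenses lay above the Control lenses.

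The INK4 inhibitors of CDK4 and CDK6 had opposite signs. Cdkn2d (p19) had 6.16 and 6.24 in cKO and 5.38 and 5.56 in Control, with a log2 fold change of 0.73 (adjusted p = 0.025). Cdkn2c (p18) had 6.09 and 6.10 in cKO and 6.93 and 6.94 in Control, with a log2 fold change of -0.84 (adjusted p = 0.014). Rbbp4, a histone-binding protein that associates with the retinoblastoma protein, had a log2 fold change of -0.71 (adjusted p = 0.037). These 3 calls were lost when cKO A, cKO B or Control B was left out, that of Cdkn2d also without Control A, with adjusted p values reaching 0.193 for Cdkn2d, 0.128 for Cdkn2c and 0.262 for Rbbp4. None of the 13 genes named from the further lists took the other sign under any of the 20 alternative settings in which it was tested. These settings reprocess the arrays on which the genes were picked for their size, so a kept sign is no independent support. Sizes depended on scaling, with Cdkn2c from -0.86 to -0.10, Rbbp4 from -0.88 to -0.12 and Cdkn3 from 0.37 to 1.13.

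A few related genes were looked at after the values had been seen. Cdkn1b (p27) had 4.93 and 4.73 in cKO and 5.41 and 5.04 in Control, with a log2 fold change of -0.39 (interval -0.81 to 0.02). Cdkn1c (p57) had 14.06 and 14.28 in cKO and 13.81 and 13.93 in Control, with a log2 fold change of 0.30 (interval -0.06 to 0.65). The p53 gene itself, Trp53, had 0.05 (interval -0.38 to 0.48), and Mdm2, a target gene and inhibitor of p53, had 0.46 (interval 0.07 to 0.85, adjusted p = 0.111). None of these 4 was called, and the groups of Cdkn1b, Cdkn1c and Mdm2 did not overlap.

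**Figure D4:**
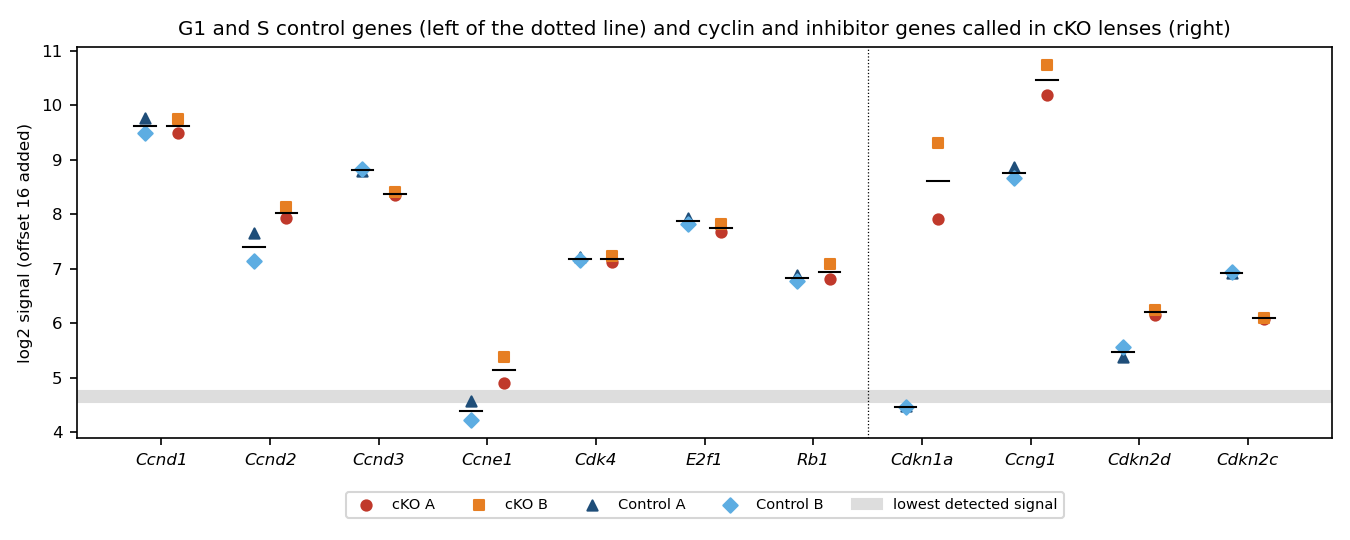
Log2 signal (y axis, offset of 16 added) on each array for 7 members of G1 and S control, left of the dotted line, and for 4 called cyclin and inhibitor genes, right of it. Symbols are single lenses, black bars are group means (n = 2), and the grey band is the lowest signal of detected probes, with Cdkn1a of both Control lenses below it.

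Dividing cells are a small part of a whole lens, and fewer dividing cells cannot be told apart from less RNA per dividing cell in such bulk samples. Of 6 markers of lens epithelium, 5 were tested, and Pax6 was not detected on enough arrays. Foxe3, a transcription factor of the epithelium, had 5.14 and 5.08 in cKO and 5.94 and 5.87 in Control, with a log2 fold change of -0.79 (adjusted p = 0.018). Pdgfra had -1.12 and Cdh1 -0.54, neither called (adjusted p = 0.092 and 0.128), and the call of Foxe3 was lost without cKO A, cKO B or Control B (adjusted p up to 0.150). Gja1 had 9.05 and 9.63 in cKO and 9.86 and 9.27 in Control, with overlapping groups, and Npnt had a log2 fold change of 0.0014. The summed signal of the 5 markers, in which Gja1 is the brightest, was 851 and 991 in cKO and 1343 and 1065 in Control lenses, lower in both cKO lenses, whereas the sums of the replication and mitosis genes overlapped. The share of the epithelium in each lens was not measured, and its part in the values of the proliferation genes was not tested.

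Other cells that divide in or near the lens were checked likewise. Of 6 markers of endothelium 5 were tested, with Emcn elevated (log2 fold change 1.12, adjusted p = 0.018). Cdh5 (0.58), Kdr (-0.59), Tek (-0.26) and Pecam1 (-0.06) were not called. The summed signal was 265 and 260 in cKO and 244 and 239 in Control, and was higher in cKO only with Emcn counted. Emcn had log2 signals of 6.22 and 6.32 in cKO and 5.40 and 4.90 in Control. Of 7 macrophage markers 3 were tested. Cd68, above background on the cKO arrays alone, was at least 1.26-fold higher in cKO (limma adjusted p = 0.038). It passed the filter through those arrays, so its p and call are no further support for a difference. Sums that include Cd68 were 92.1 and 90.7 against 80.0 and 84.4, while Csf1r (-0.11) and Aif1 (-0.06) had overlapping groups. The call of Emcn was lost without cKO A, cKO B or Control B, and that of Cd68 without either Control sample. Markers of retina and muscle were tested for 0 genes, 1 of 5 pigment cell markers was tested and was not called, and the 2 globin genes tested were not called. Of 7 markers of lens fibers 5 were tested, with Bfsp2 (-0.76) and Dnase2b (-1.60) reduced and sums of 51271 and 46128 in cKO against 60693 and 60028 in Control. These sums include Mip, whose probe held the same rank on 3 arrays and so took the same quantile-normalized log2 signal there (14.75), with 14.61 in cKO B. The call of Bfsp2 was lost when cKO A, cKO B or Control B was left out, and that of Dnase2b held without each sample. The part of these cell types in the values of the proliferation genes was not tested.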

How the data were processed

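Total RNA of 4 lenses (2 Celf1 cKO, 2 Control) was measured on BeadChips. The authors deposited a table of unnormalized and a table of normalized signal intensity, which per the file headers was exported from the scanner software with rank-invariant normalization. Both deposited tables gave each probe's detection p-value on every array, and the standard error and number of beads, taken from the authors' files as other values. Of 45281 probes, 18 on lines with shifted cells were left out. There were 0 columns of other samples. Array values carry no read depth, and the number of arrays limits the precision.

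Probes filed under a member symbol were given to that gene, and all others were named through RefSeq (GRCm38.p6). Unnormalized intensity was corrected with neqc of limma (version 3.58.1, R 4.3.3; offset 16; negative controls inferred from detection p-values), quantile normalized and log2 transformed. A probe was kept where its detection p was under 0.05 on at least 2 arrays, and kept probes were averaged per gene. Groups were compared with lmFit and eBayes, in a two-sided test adjusted over all 11517 genes by Benjamini-Hochberg. Calls required an adjusted p under 0.05, a log2 fold change beyond 0.58 in either direction and a mean log2 signal above 4.6. These values were taken from the study's methods, but 4.6 was applied here to signal with 16 added and is a weaker filter. It removed no call (1342 genes with and without it). The authors used edgeR, a count model, which does not suit intensities and was left aside. The fit was tested on simulated data. A summed signal is the sum over genes of the normalized signal, offset included. Promoter words were counted with Python 3.11.15.

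Replicates are single lenses, and the letters A and B do not pair them (the A minus B differences of the groups correlated at -0.011 across 11517 genes). The genes named are Celf1, all tested members, and of each further list the 3 called genes of largest positive and of largest negative change, and markers of other cell types, except where stated. The members and lists were chosen with earlier results of these data known. Alternatives covered the table, background, scaling, filters, probe rule, variance model, fold test, replicate block and leaving out each sample.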

Additional observations from a re-analysis of the deposited data

How the results depend on the processing

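The number of genes called and of proliferation genes called depended on scaling, filters and single samples, and the cause was not tested unless stated. In place of 1342, the genes called numbered 7 with the deposited normalized table at a floor of 1, 789 with normexp and an offset of 50, 5418 at the same median per array, 2692 at the same median over probes detected on all arrays, 5790 with no scaling, 207 with no detection filter (28845 genes tested) and 83 with a test against the fold threshold (treat). Elevated genes were 51.6% of calls as reported, 71.4% with the deposited table at a floor of 1 (5 of 7), 44.9% of 1350 with 16 added to that table, 97.3% at the same median per array, 24.9% at the same median over detected probes and 97.7% with no scaling. Leaving out 1 sample gave 126 to 1302 calls (528, 126 and 366 when cKO A, cKO B and Control B were dropped). Proliferation genes called numbered 0 as reported, 19 at the same median per array, 20 with no scaling, 2 at the same median over detected probes, 1 (Ccnd2, 0.73) among probes detected on all 4 arrays, and 0 to 1 leaving out 1 sample, the 1 being Ccnd2 without Control A. With the replicate letter as a block, 1675 genes were called and 1 proliferation gene, Ccne1 (adjusted p = 0.037). The samples share only a letter, so this block is not a pairing of lenses.

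Over the 8 G1 and S control genes above background in both groups, the median log2 fold change was -0.01. The list medians that follow include Mcm3, Ccne1 and Ccne2, which were above background on no Control array. Relative to the median of all genes, the list medians were -0.09 for DNA replication, -0.04 for mitosis and 0.04 for G1 and S control. They became 0.0722 for mitosis and 0.195 for G1 and S control under all 3 of the same median per array, the same median over detected probes and no scaling, and -0.0054 for DNA replication with no detection filter. Leaving out 1 sample gave -0.09 to -0.04 for DNA replication, -0.05 to 0.02 for mitosis and -0.0846 to 0.102 for G1 and S control, the lowest without cKO B.

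Members took a called value of the opposite sign only under scalings that moved all genes. At the same median per array these were Pold1 (0.62), Birc5 (0.64), Cenpa (0.70), Ccnd1 (0.78), Cdk4 (0.70) and E2f1 (0.69). With no scaling they were Cdt1 (0.61), Pold1 (0.66), Birc5 (0.68), Cenpa (0.73), Ccnd1 (0.82), Cdk4 (0.74) and E2f1 (0.72), and at the same median over detected probes Mcm3 (-0.59, a fitted value against Control arrays on which it was not above background). Signal near background limits Mcm3, Cdc25c, Ccne1 and Ccne2. With the deposited table at a floor of 1, which adds no offset, 7 of 40 members had an interval within 0.58 of 0 (9.40% of all genes), against 24 as reported. At the same median per array 2 of 40 did (13.4% of all genes), and with no scaling 0 of 40 (11.3%). The slide as a block was not run, since the files give no slide.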
